A study of Fragaria x ananassa with 4 samples.

Results

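The PRE (PACLOBUTRAZOL RESISTANCE) genes of strawberry were followed between green and red receptacle. A total of 4 entries of the array carry them: a probe entered under the name FaPRE1, and the woodland strawberry gene models gene30478, gene28320 and gene03986, which the study calls FaPRE1, FaPRE2 and FaPRE3. They were picked by name, not by a threshold on their values, out of 35116 gene models and named genes on the array. All 4 were well above background on each of the 4 arrays, and all 4 were among the 24975 genes tested.

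PRE proteins are small helix-loop-helix (HLH) proteins. A bHLH transcription factor binds DNA through a basic region and pairs with partners through its helix-loop-helix. PRE proteins lack a working basic region, so they pair with other HLH proteins without binding DNA themselves. In Arabidopsis, PRE1 promotes cell elongation downstream of gibberellin and brassinosteroid: it pairs with IBH1, an HLH inhibitor, and frees the elongation-promoting bHLH proteins that IBH1 holds back.

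RNA came from receptacle, the fleshy part of the fruit that bears the achenes, of cultivated strawberry (Fragaria × ananassa). The samples were 2 of ripe red receptacle (R) and 2 of small green receptacle (G1, the immature stage), each labelled with Cy3 and hybridised alone to a custom Agilent array of 61657 spots other than controls. No treatment or transgene was involved, and the cultivar is not given in the sample labels. The labels speak of separate fruits from plants raised in a chamber and moved to a greenhouse, whereas the methods speak of field plants and pooled fruits, so the p-values below may measure only technical spread between arrays. On a whole-tissue array, fewer cells of a type and less RNA per cell cannot be told apart.

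Ripening markers were set beside the stage labels. The study lists the markers of ripe receptacle as up-regulated in red receptacle from this same comparison. Their rise is therefore a description and cannot check the labels. All 6 markers of ripe receptacle were higher in the red samples, among them FaMYB10 (gene31413), the MYB regulator of anthocyanin genes, by 7.63 on the log2 scale, and FaCAD1 (gene20700), a cinnamyl alcohol dehydrogenase, by 8.40. Their summed signal, in multiples of the 75th percentile of each array, was 532 and 607 in red receptacle and 4.29 and 3.95 in green. Genes listed by their descriptions as achene or seed genes also differed. Of 34 tested, 28 were higher and 4 lower in red receptacle, with summed signals of 182 and 189 against 68.6 and 73.9. The methods state that achenes were taken off ahead of RNA extraction, and whether this list marks achene tissue was not tested. Of 40 genes of green tissue (chlorophyll-binding and photosystem proteins), 38 were lower and 2 higher in red receptacle, with sums of 313 and 330 against 1526 and 1468. By the same threshold (adjusted p under 0.05 in limma), 37.8% of all genes tested were higher and 35.1% lower in red receptacle. Both marker lists moved with the stage, and their part in the FaPRE values was not tested. Red sample 1 was alone on its slide and scan, and the other 3 arrays shared theirs.

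The study told the FaPRE transcripts apart by PCR with primers that it places in the 3′ UTR. The members themselves were named from an analysis of strawberry genomes. The primers are shown because the study's separate measures of the members rest on them. They read as follows, 5′ to 3′, with capitals marking a run of 13 bases that a FaPRE2 primer shares with the reverse primer used to clone FaPRE1.
FaPRE1 forward: ccatgatcatcaagcaaacg
FaPRE1 reverse: gagctctttgtctaagatggggta
FaPRE2 forward: caagcacggttaattgagca
FaPRE2 reverse: tttgctagCTAGTGCAAGTCC
FaPRE3 forward: cgacgatccgccataacta
FaPRE3 reverse: ggctaatgagcaaaccctagc
FaPRE1 cloning reverse, after its restriction site: CTAGTGCAAGTCCtttttattaatc
Among the other pairings of primers of different members, on either strand, the longest shared run was 7 bases. The chromosomes of these genes and the sequences of the array probes were not analysed here, so which FaPRE transcripts each array probe can bind is unknown.

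The FaPRE1 probe was printed in 2 spots. Its log2 signal relative to the 75th percentile of the array, the scale of all levels below, was 0.77 and 0.74 in the red samples and -1.60 and -1.99 in the green samples. Both red samples lay above both green samples, and the gap between stages was much wider than the gap between the 2 samples of a stage. The red mean was 0.75 ± 0.02 (SD, n = 2) and the green mean was -1.80 ± 0.28 (SD, n = 2), a difference of 2.55 with a standard error of 0.16, or 5.85-fold. The 2 spots gave 2.54 and 2.56 each. In processed signal, spot 1 read 1112 and 817 in red receptacle and 128 and 83.5 in green. The green values were dim but measured, at 4.81 to 7.12 times the local background. Without red sample 1 the difference was 2.54, so it was as large among the arrays of 1 slide. FaPRE1 was selected for study because its transcripts rise with ripening, so its difference is a description and no test is given.

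The FaPRE2 model, gene28320, was found in the study through its sequence. It was taken up here with earlier results of these data known, so its test is no independent evidence. Its level was 4.33 and 4.39 in the red samples and 1.95 and 2.08 in the green samples. The stages did not overlap. The difference was 2.35 (standard error 0.08), or 5.08-fold higher in red receptacle, with an adjusted p = 1.2e-04 in limma and a 95% interval from 2.12 to 2.57. In processed signal this was a passage from 1509 and 1465 in green to 13518 and 10654 in red receptacle, well clear of background in both stages. Among all genes tested, 72.8% passed the threshold (adjusted p under 0.05), 37.8% as higher and 35.1% as lower in red receptacle, so a call alone does not set gene28320 apart. By size its difference ranked 1324 of 24975 from the top.

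**Figure D1:**
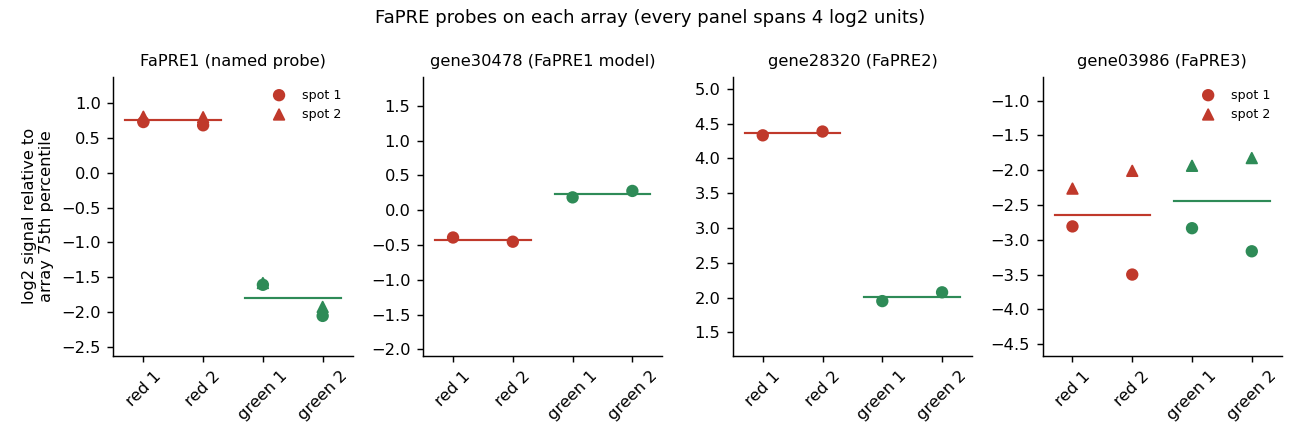
Log2 signal of each FaPRE probe relative to the 75th percentile of the array (y axis) in each sample (x axis), with circles and triangles for the 2 spots of a probe and lines for the stage means. The FaPRE1 probe and gene28320 were higher in both red samples, gene30478 was lower in both, and the 2 spots of gene03986 differed more than the stages did.

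The gene30478 model, named FaPRE1 in the study, did not share the pattern of the FaPRE1 probe. Its single spot gave levels of -0.39 and -0.45 in the red samples and 0.18 and 0.28 in the green samples. Here both green samples lay above both red samples. In processed signal, before scaling, the spot read 511 and 372 in red and 444 and 421 in green receptacle, so the stages overlapped. The 75th percentiles used for scaling were 671 and 509 in red and 390 and 347 in green. The separation of the stages thus appeared only after the arrays were scaled. The difference was -0.65 (standard error 0.07), or 1.57-fold higher in green receptacle. On the authors' normalized matrix it was -0.19 (standard error 0.07), with intensities of 397 and 378 in red and 432 and 453 in green receptacle. The size thus depended on the scaling. The sign was also negative after quantile normalization (-0.65) and with normexp correction (-0.62). Other filters and tests could not change the estimate of a gene with a single spot. As for the FaPRE1 probe, no test is given.

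The probe named FaPRE1 and the model gene30478 therefore differed by 3.20 on the log2 scale in their red minus green difference. FaMYB10, FaQR and FaCAD1, which the array also holds both by name and by model, went the same way in both entries. The study lists them as ripening genes, so their shared rise does not show how often a name and a model differ. Other named genes were not compared with their models. FaMYB10, entered as Famyb10, rose by 8.56 by name and by 7.63 by model. FaQR, the quinone oxidoreductase that makes the aroma compound furaneol, rose by 4.91 by name and by 6.75 by model (gene28407). FaCAD1 rose by 7.83 by name and by 8.40 by model. Over the 4 arrays, the profile closest to the FaPRE1 probe among the FaPRE models was that of gene28320. The root mean square difference between their centred values was 0.21, compared with 1.61 between the FaPRE1 probe and gene30478. Of the 24974 other genes, gene28320 was the 336th most similar to the FaPRE1 probe and gene30478 was the 17724th. With 4 arrays in 2 stages, these ranks mostly restate the stage differences above and do not show what the probe detected. Which of these transcripts the FaPRE1 probe detected was not tested, and neither was whether the models gene30478 and gene28320 correspond to the transcripts that the study measured as FaPRE1 and FaPRE2. The values here belong to the array entries, whatever their names.

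**Figure D2:**
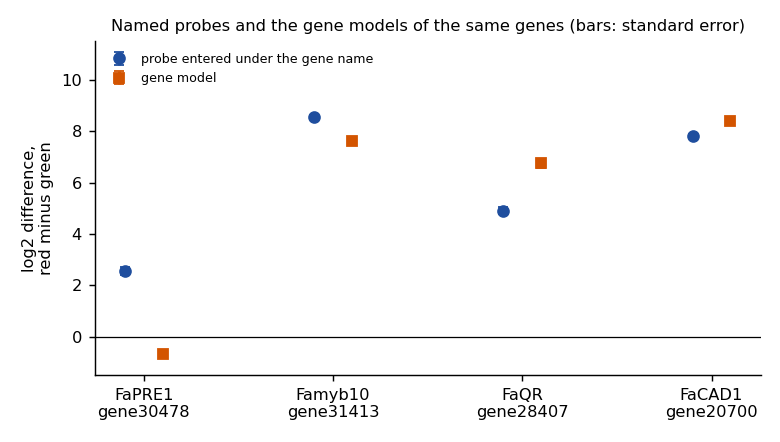
Log2 difference, red minus green receptacle (y axis), for probes entered under a gene name (circles) and for the gene models of the same genes (squares), with standard errors. FaPRE1 and gene30478 lie on opposite sides of 0, at 2.55 and -0.65, while the other 3 pairs are all above 4.

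The FaPRE3 model, gene03986, was dim in both stages, at 2.63 to 7.36 times the local background. Its mean level over 2 spots was -2.54 and -2.75 in the red samples and -2.39 and -2.50 in the green samples. The red samples lay below the green samples by less than its 2 spots differed from each other. The difference was -0.20 (standard error 0.11), adjusted p = 0.162 in limma, with a 95% interval from -0.51 to 0.10. It did not pass the threshold, and the interval leaves out any change as large as that of gene28320.

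The 2 spots of gene03986 disagreed on every array. Spot 1 read between 38.7 and 95.9, and spot 2 read 139.7, 126.5, 102.0 and 98.0 in red 1, red 2, green 1 and green 2. Spot 2 was brighter throughout, by 0.54, 1.49, 0.90 and 1.34 on the log2 scale in the same order. The median gap between 2 spots of a probe was 0.09 to 0.10 on these arrays, and only 0.17% to 4.01% of probes had a wider gap than gene03986. The 2 spots of the FaPRE1 probe differed by 0.02 to 0.13. Taken alone, the spots of gene03986 gave differences of -0.15 and -0.26. The sign of this gene also turned with the scaling: on the authors' matrix it was 0.26 (adjusted p = 0.135 in limma) and after quantile normalization 0.17 (adjusted p = 0.234), whereas with normexp background correction it was -0.25 and passed the threshold (adjusted p = 0.025). No direction can therefore be given for gene03986.

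**Figure D3:**
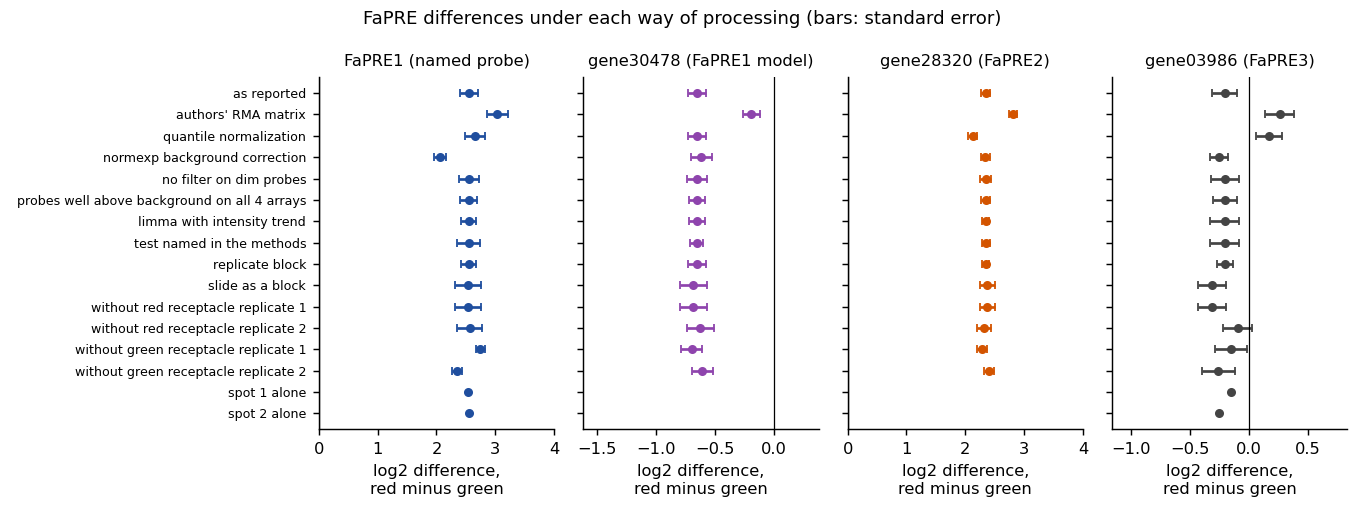
Log2 difference, red minus green receptacle (x axis), of each FaPRE probe under each way of processing (y axis), with standard errors where a model was fitted. The FaPRE1 probe stayed between 2.06 and 3.04, gene28320 between 2.12 and 2.81 and gene30478 between -0.70 and -0.19, while gene03986 fell on both sides of 0.

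Set against all genes, the members took separate places. The median difference over all genes tested was 0.04. The FaPRE1 probe and gene28320 were at the 95.3 and 94.7 percentiles of the signed difference, gene30478 at the 28.2 and gene03986 at the 41.0. Relative to the median of all genes, which was 0.51 on the authors' matrix, 0.18 after quantile normalization and -0.21 with normexp correction, the FaPRE1 probe was 2.51 higher as reported and 2.52 higher on the authors' matrix. The values for gene28320 were 2.31 and 2.30, those for gene30478 were -0.69 and -0.70, and those for gene03986 were -0.24 and -0.25. The authors' matrix therefore shifted the members along with the other genes. The other scalings moved them unequally. With quantile normalization and normexp correction, respectively, the FaPRE1 probe lay at 2.48 and 2.27 from that median, gene28320 at 1.95 and 2.55, gene30478 at -0.83 and -0.40 and gene03986 at -0.01 and -0.04.

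**Figure D4:**
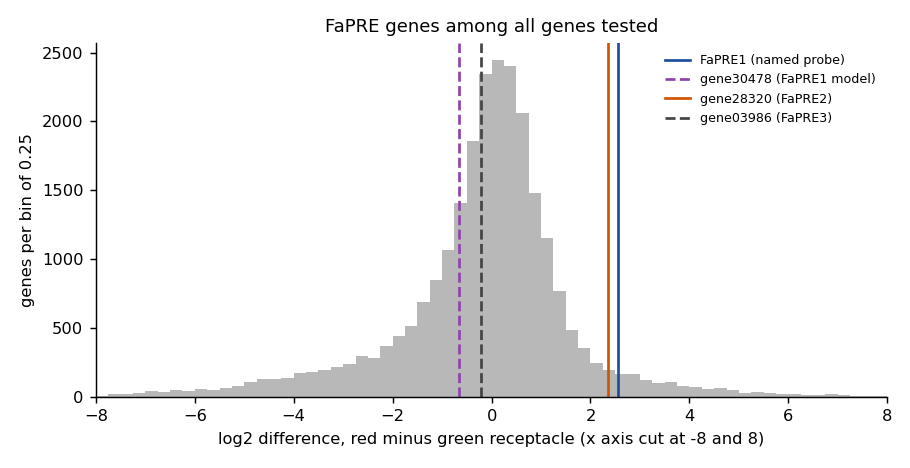
Number of genes (y axis) by log2 difference, red minus green receptacle, in bins of 0.25 (x axis), with a line at each FaPRE probe. The FaPRE1 probe and gene28320 lie in the upper tail and gene30478 and gene03986 lie in the body of the distribution.

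The genes most like each member were found by the root mean square difference of their 4 centred values, among 15866 described genes. For the FaPRE1 probe these were gene00396, a phosphoenolpyruvate carboxykinase, which feeds organic acids into sugar synthesis, gene19344, a cytochrome P450, gene01144, a WNK-type kinase, gene12872, a ubiquitin-like protein, and gene20854, a predicted protein, at 0.02 to 0.07. For gene28320 they were gene05781, gene08702, a plasma membrane proton ATPase, gene05677, gene21641, a Mo25 family protein, and gene34982, an aldo/keto reductase, at 0.01 to 0.03. For gene30478 they were gene09096, a pentatricopeptide repeat protein, gene19753, gene13401, gene04630 and gene03905, at 0.01 to 0.02. For gene03986 they were gene16440, gene27942, gene18654, a calcium-dependent kinase, gene21988 and gene11638, an RNA-dependent RNA polymerase, at 0.01 to 0.02. With 4 arrays in 2 stages, such likeness rests mostly on the size of the stage difference.

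PRE proteins act by pairing with other HLH proteins, so the genes described as bHLH or HLH were examined next. Of 51 such genes, 37 were tested: 10 were higher in red receptacle, 23 were lower and 4 did not pass the threshold, with a median difference of -0.99 against 0.04 over all genes. Of all genes tested 37.8% were higher and 35.1% lower. Of the called bHLH genes, 8 of the 10 and 20 of the 23 were well above background on all 4 arrays. With the authors' matrix the counts were 12 higher and 21 lower, beside 13176 and 5962 of 24975 over all genes. With normexp correction they were 9 and 25, beside 7691 and 11548 of 24975. The descriptions do not annotate the FaPRE models themselves as HLH genes, so none of them is in this list.

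The bHLH genes that rose most, among those measured on all 4 arrays, were gene17430, gene11436, gene16871, gene26967 and gene20622. The level of gene17430 was -0.04 and -0.16 in red and -2.42 and -2.43 in green receptacle, a difference of 2.33 (adjusted p = 1.1e-04 in limma), which is near that of gene28320. The other 4 differed by 0.92 to 1.42. Those that fell most were gene06435, gene02629, gene08048, gene19321 and gene22860. The level of gene06435 was -5.52 and -5.62 in red and -2.58 and -2.47 in green receptacle, so that it was 8.25-fold higher in green (adjusted p = 7.25e-05 in limma). The differences of the other 4 were -1.74 to -1.99, and gene19321 among them is described as BHLH33. Of the 4 genes that did not pass, also named after their values were known, gene06093 and gene15187 differed by 0.02 and -0.03 and gene22289 by -1.39, while gene26880 was low on 1 red array alone, at -7.83 in red 1 and -0.16 in red 2 against -0.12 and 0.02 in green receptacle.

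A few HLH genes were dim in one stage; these were picked out with their values in view. Each passed the filter on dim probes only through the stage where it was bright, so it had to differ, and no test is given. gene28704 has as its best hit At3g58850, the Arabidopsis PAR2, an atypical HLH that restrains elongation in shade. Its level was -1.46 and -1.74 in the green samples and -5.96 and -7.23 in the red samples, where it was not well above background on either array. It was at least 29.5-fold lower in red receptacle, the bound being set by the dimmest signal still well above background or by its own signal where that was higher. The reverse held for gene03713, a bHLH gene, at -0.88 and -0.85 in red and below that mark on both green arrays, which was at least 52.6-fold higher in red. The probe named FabHLH1 was likewise at least 91.3-fold higher in red receptacle. Likewise, gene22897 was well above background only on red arrays and gene00545 only on green arrays. The bHLH counts above include gene28704 and gene00545 as lower and gene03713 and gene22897 as higher. These calls carry no weight as tests.

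**Figure D5:**
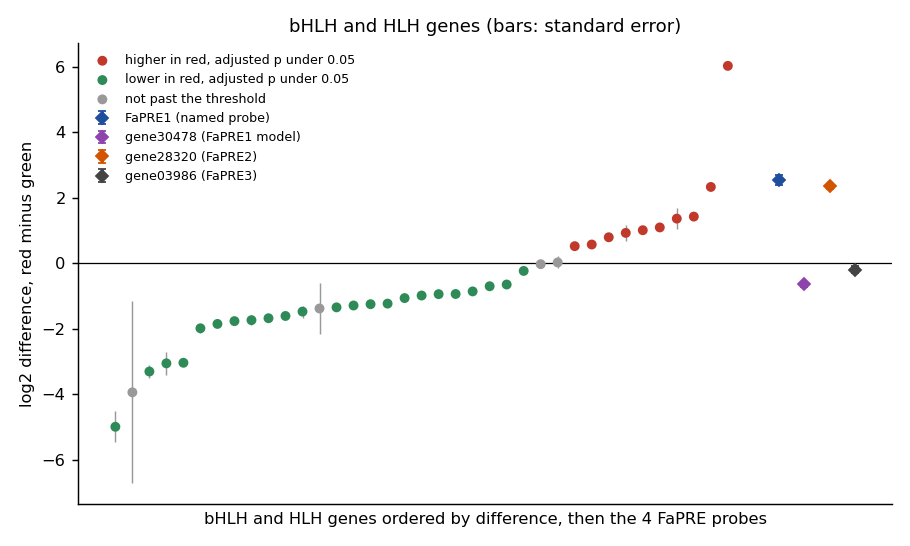
Log2 difference, red minus green receptacle (y axis), of the 37 bHLH and HLH genes tested, ordered by their difference (x axis) and coloured by call, followed by the 4 FaPRE probes as diamonds, with standard errors. Of the list, 23 genes are lower and 10 higher in red receptacle, and the FaPRE1 probe and gene28320 lie above all of the list but gene03713. The calls of gene03713, gene22897, gene28704 and gene00545 follow from the filter on dim probes.

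Gibberellin is the hormone through which Arabidopsis PRE1 was first known. Of 94 genes described with gibberellin terms, 68 were tested, of which 29 were higher, 27 lower and 12 not past the threshold, with a median of 0.05. Over all genes 37.8% were higher and 35.1% lower, with a median of 0.04, so the list as a whole lay near the background. With only probes well above background on all 4 arrays, 21 were higher and 22 lower, beside 8529 and 7516 of 21493 over all genes. The genes below are the extremes of the list, among those well above background on all 4 arrays. A gibberellin 20-oxidase-like gene (gene31924), of the enzyme class that makes gibberellin precursors, had levels of 3.21 and 3.28 in red and -2.57 and -2.54 in green receptacle, a rise of 5.80. It is also described as a 2-oxoglutarate-dependent dioxygenase, and its part in gibberellin synthesis was not tested. A gene like the gibberellin receptor GID1, gene28508, rose by 5.55, and another, gene28538, was 53.6-fold higher in green receptacle. Both are also described as carboxylesterases, the enzyme family to which GID1 is related. A DELLA gene (gene30958), of the repressors that gibberellin removes, had levels of 1.55 and 1.61 in red and 5.71 in both green samples, and was 17.5-fold higher in green receptacle. For each of these 4 genes the adjusted p was 4.16e-05 or lower in limma.

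Of 83 genes described with brassinosteroid terms, 52 were tested, of which 13 were higher, 28 lower and 11 not past the threshold, with a median of -0.47, beside 37.8% higher and 35.1% lower over all genes. With the authors' matrix these counts were 16 higher and 19 lower, beside 13176 and 5962 of 24975 over all genes. With only probes well above background on all 4 arrays they were 10 higher and 24 lower, beside 8529 and 7516 of 21493. Many of these genes are leucine-rich repeat kinases described as relatives of BAK1, the partner of the brassinosteroid receptor. Among those well above background on all 4 arrays with no overlap between stages, the largest rises were those of gene27749 (2.11) and gene28058 (1.36), and the largest falls those of gene04170, 30.1-fold higher in green receptacle, and gene23821, 19.7-fold higher in green. All 4 are such kinases, which serve other receptors too.

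Expansins loosen the wall during growth and are common targets of the elongation pathway. Of 27 expansin genes, 17 were tested, of which 4 were higher, 12 lower and 1 not past the threshold, with a median of -0.997, beside 37.8% higher and 35.1% lower over all genes. With only probes well above background on all 4 arrays, 4 were higher and 10 lower, beside 8529 and 7516 of 21493 over all genes. The beta-expansin gene03974 had levels of -0.57 and -0.60 in red and -2.94 and -2.71 in green receptacle, a rise of 2.24, and the alpha-expansin gene26030 rose by 2.73. The other 2 that rose, gene21343 by 2.09 and gene28118 by 1.57, and gene25401, which differed by 0.15 and did not pass (adjusted p = 0.363 in limma), were named with their values in view. The alpha-expansin gene04435 was 37.1-fold higher in green receptacle and the beta-expansin gene17701 was 24.1-fold higher in green. Members of both expansin families thus moved in each direction.

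Abscisic acid drives strawberry ripening. Only 4 of 9 genes described with its terms were tested, of which 2 were higher and 2 lower, beside 37.8% and 35.1% over all genes. The lower count fell to 1 on the authors' matrix and with probes well above background on all 4 arrays. Over all genes, 5962 of 24975 and 7516 of 21493 were lower in these settings. An abscisic stress ripening gene (gene08120) rose by 2.57, or 5.93-fold. A 9-cis-epoxycarotenoid dioxygenase (gene30616), of the enzymes that commit carotenoids to abscisic acid, had levels of 3.78 and 3.76 in red and 2.80 and 2.94 in green receptacle, a rise of 0.90, and an HVA22-like gene (gene06288) was 1.44-fold higher in green receptacle. For each of the 3 genes the adjusted p was 0.00374 or lower in limma. The other gene that was lower, gene08830, of the same enzyme class and named after its values were known, was too dim on both red arrays to pass that mark and was at least 3.72-fold lower there; it too passed the filter only through its bright stage, and no test is given.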

How the data were processed

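RNA of 2 red and 2 green receptacle samples was hybridised to 1-colour Agilent arrays. Per the file headers, Feature Extraction 10.7.3.1 gave each spot a processed intensity, background-subtracted and detrended within the array with no scaling between arrays. A second deposited file, an intensity matrix that the authors made by RMA, is on a linear scale and holds the gene descriptions.

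The log2 processed signal was set relative to the 75th percentile of the spots other than controls on each array. Outlier spots were left out, spots of a probe were averaged, probes had to be well above background on 2 or more of the 4 arrays, and probes of a gene were averaged. This left 24975 genes, after 40 with a missing value were left out. They were compared in limma 3.58.1 (R 4.3.3; lmFit, eBayes), two-sided, with Benjamini-Hochberg adjustment over all genes. The procedure was tested on simulated data. The test drew on 2 residual and 1.81 prior degrees of freedom. On arrays, 2 samples per stage limit the precision.

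The members and the keyword lists were chosen with earlier results of these data known. The genes named are the members, the 5 largest rises and falls of the bHLH list and the 2 of each other list (adjusted p under 0.05, well above background on all arrays, stages not overlapping), the 5 genes most like each member and stage markers. The alternatives were the RMA matrix, quantile normalization, normexp correction (offset 50), other filters, a trend, the methods' t-test, replicate and slide blocks, single spots and leaving out each sample. The RNAi-FaPRE1 arrays were not analysed here. Primer sequences are those listed with the study.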

Additional observations from a re-analysis of the deposited data

How the results depend on the processing

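The difference of gene28320 kept its direction and passed the threshold under each of its 13 alternatives, from 2.12 to 2.81. On the authors' RMA matrix the FaPRE1 probe moved to 3.04, gene30478 to -0.19 and gene03986 to 0.26. Quantile normalization turned gene03986 to 0.17, normexp correction moved it to -0.25 (adjusted p = 0.025 in limma) and moved the FaPRE1 probe to 2.06, and the cause was not tested. Leaving out each sample in turn gave 2.35 to 2.75 for the FaPRE1 probe, -0.70 to -0.61 for gene30478, 2.28 to 2.41 for gene28320 and -0.31 to -0.10 for gene03986. The share of called genes that were higher in red receptacle was 51.9%, compared with 68.8% on the authors' matrix, 57.3% after quantile normalization and 40% with normexp correction. The counts over all genes stayed within 1.5 times of 9436 higher and 8755 lower. The study's criterion is a log2 fold change beyond 2 with a p of 0.05 or less. With the p taken here as unadjusted, it called 1612 higher and 2925 lower.

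No pairing of the samples by replicate number is documented. The deviations of red 1 and green 1 from their stage means had a correlation of 0.08 across genes. With 2 samples per stage, this value cannot show whether samples were paired. With the replicate number as a block, 9465 genes were higher and 8844 lower, gene28320 had an adjusted p = 0.00116 and gene03986 an adjusted p = 0.0852 in limma, and no call of a member changed. With 1 sample left in a stage, it was assumed to vary like the other stage. The signal of gene03986 was 2.63 to 7.36 times its background.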
